A study of Mus musculus with 12 samples.

Results

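The Ifi200 cluster is a row of interferon-inducible genes on mouse chromosome 1. The 10 genes described here are Aim2, Ifi206, Ifi213, Ifi209, Ifi204, Mndal, Ifi211, Ifi203, Ifi202b and Ifi205, and all 10 were found by symbol among the 32121 genes counted. They were chosen by their measured levels, which varied even among control animals, so their spread between animals is given as a description, with no test. Messenger RNA was counted in 12 libraries, 2 pieces of spleen from each of 6 mice, all labelled C57BL/6. In 3 animals, called SB 1 to SB 3, a Sleeping Beauty transposase (SB) and onc2, a mutagenic transposon, were combined with VEC-Cre, a Cre recombinase driven from the vascular endothelial cadherin promoter. The other 3 were wild-type controls, called control 1 to control 3. The label does not say whether the controls carried any of these alleles, and no age or sex is spelled out. In the titles, the names of SB 1 and SB 2 begin with F and that of SB 3 with M, letters that may stand for sex.

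Most of the proteins made by this family join a pyrin domain, which binds other pyrin domains, to a HIN domain, which binds DNA. Aim2 senses double-stranded DNA in the cytosol and assembles an inflammasome through the adaptor Pycard and the protease Casp1. The protein of Ifi202b has HIN domains and no pyrin domain, and is known as an inhibitor of Aim2. Interferons induce most members in macrophages and lymphocytes, and the level of some, Ifi202b above all, is known to differ between mouse strains.

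The libraries held 14320833 to 22031026 counts, and levels below are in CPM, counts scaled to a common library size with TMM factors. Some libraries went against their labels or stood apart. H2-Ea-ps, the MHC class II gene that C57BL/6 mice do not transcribe, gave 85.5 to 98.9 CPM in the control libraries and at most 0.439 CPM in the SB libraries. Cd74, the class II invariant chain, was at 10420 and 9691 CPM in SB 2, within the control range of 8635 to 11620 CPM, so H2-Ea-ps was near 0 in an SB spleen with Cd74 at the control level. Of 3 listed strain-linked genes, H2-Ea-ps was the 1 called between SB and control animals, lower in SB (edgeR adjusted p = 0.000637). Nnt was at 39.9 to 125.3 CPM in SB and 38.54 to 46.03 CPM in control libraries (edgeR adjusted p = 0.228). Gbp2b was at 0.093 to 25.06 CPM in SB and 21.11 to 60.15 CPM in control libraries (edgeR adjusted p = 0.378). Xist was at 964 to 2617 CPM in SB 1 and SB 2, whose names begin with F. In the other animals Xist was at most 3.47 CPM. The 8 B cell markers summed to 62.1 to 167 CPM in SB libraries and 7418 to 9559 CPM in controls, and all 8 were lower in SB (edgeR, adjusted p under 0.05). Red pulp macrophage and monocyte markers were highest in SB 2, at 7950 to 7958 and 3456 to 3649 CPM in its libraries, against at most 2046 and 626 CPM in any other animal. The part of cell makeup, strain background or sex in the results below was not tested. In pieces of whole spleen, fewer cells of a type and less RNA per cell cannot be told apart.

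Control 1 stood apart from controls 2 and 3 across much of the cluster, in both directions at once. Ifi213, Ifi206, Ifi209, Mndal and Ifi203 were lower in both of its libraries than in the other 4 control libraries, and Ifi211, Ifi204 and Ifi202b were higher. Of all 17328 genes tested, 6.88% had both control 1 libraries above the other 4 and 5.64% had both below. Since spread among controls chose these genes, nothing is read from their 3 and 5 of 10. Both libraries of control 2 lay outside the other control libraries in 0 of the 10 genes, and those of control 3 in 3. For controls 2 and 3 no share over all genes was counted, so nothing is read from these counts either.

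The widest range belonged to Ifi213 (ENSMUSG00000073491, chr1:173566283-173599274, minus strand, GRCm38), a pyrin domain member of the family. It was at 3.85 and 4.50 CPM in pieces 1 and 2 of control 1, 17.4 and 24.4 in control 2, and 37.4 and 27.4 in control 3. Control 1 was thus below both other controls in each piece, and the highest animal was 7.82-fold above the lowest. In log2 CPM the range over the 3 control animals was 2.95, against at most 0.49 between the 2 pieces of any control, and it lay at percentile 99.9 of all genes tested. Its neighbour Ifi206 (ENSMUSG00000037849, chr1:173468485-173491041, minus strand) followed the same order. Ifi206 was at 5.06 and 4.61 CPM in control 1, 20.7 and 18.2 in control 2, and 31.5 and 19.3 in control 3. Ifi209 (ENSMUSG00000043263, chr1:173630917-173647928, plus strand) was more abundant, with 73.5 and 71.4 CPM in control 1, 152 and 129 in control 2, and 194 and 133 in control 3. In each of these genes the control 1 libraries did not overlap those of the other controls.

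Ifi211 and Ifi204 ran the other way. Ifi211 (ENSMUSG00000026536, chr1:173896345-173913046, minus strand) was at 10.46 and 10.53 CPM in control 1, at 1.25 and 1.70 in control 2, and at 1.45 and 1.43 in control 3. Control 1 was 7.31-fold above the lowest control, and the piece difference was at most 0.41 in log2 CPM. Ifi204 (ENSMUSG00000073489, chr1:173747293-173766943, minus strand) encodes p204, a DNA sensor that acts upstream of STING and takes part in myeloid differentiation. Its levels were 35.2 and 35.6 CPM in control 1, 5.20 and 8.85 in control 2, and 7.99 and 10.97 in control 3. Control 1 was again the animal outside the others, here above them. Ifi204 and Ifi211 had the highest correlation of any pair of members over the 12 libraries (Pearson r = 0.96), a description over points that share animals and sequencing. The pair also shares sequence: 30.1% of the 50-base stretches of Ifi211 transcripts occur in Ifi204 transcripts and 44.7% in those of Ifi205. With so much in common, reads can be split between them by the counting, and the single values of Ifi211 are uncertain. Ifi205 itself differed little among the controls, as given below.

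**Figure D1:**
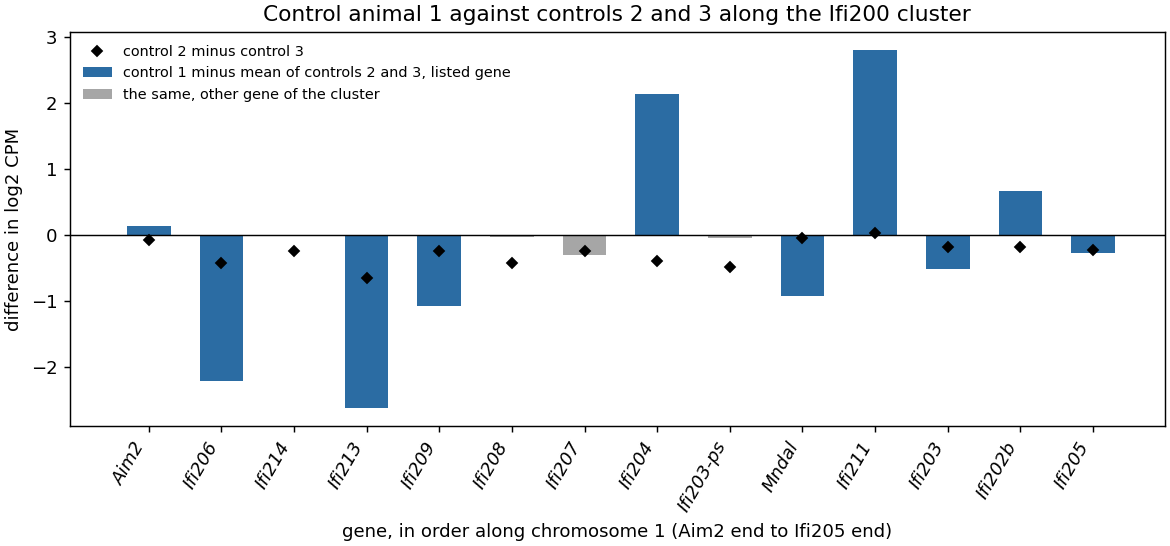
Difference in log2 CPM between control 1 and the mean of controls 2 and 3 (bars) and between controls 2 and 3 (diamonds) for cluster genes with a control mean above 1 CPM, in order along the chromosome. Bars reach -2.62 for Ifi213 and 2.80 for Ifi211, while Ifi214, Ifi208 and Ifi203-ps stay near 0.

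The stretches upstream of these genes show what some of them share. RefSeq windows of 250 bases before the transcript start (GRCm38.p6) were found for 9 of the 10 genes. They were searched on both strands for GAAANNGAAA, the core of the interferon-stimulated response element (ISRE), and for TTCNNNGAA, the core of the gamma interferon activation site (GAS). Mndal and Ifi203 have 2 windows each, which gives 11 windows. The ISRE-like letters were in 7 of the 11, against 2.98% of 32851 windows of the genome's genes. The 7 belong to 6 genes, Ifi206, Ifi213, Mndal, Ifi211, Ifi203 and Ifi205, which include genes low and high in control 1, and the second Ifi203 window held none. The GAS-like letters were in 1 of the 11 windows, that of Ifi202b, against 7.02% of all windows. Below are the bases from 160 to 11 before the start, 5′ to 3′ on the gene's strand, for 3 genes low in control 1, for Ifi211, which was high there, and for Ifi203 and Ifi202b, which varied less. Capitals mark the ISRE-like letters, and in Ifi202b the GAS-like letters.
Ifi206, chr1:173491329-173491478, minus strand: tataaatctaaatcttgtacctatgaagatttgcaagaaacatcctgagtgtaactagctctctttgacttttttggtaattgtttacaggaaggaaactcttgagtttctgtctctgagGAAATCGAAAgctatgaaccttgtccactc
Ifi213, chr1:173599283-173599432, minus strand: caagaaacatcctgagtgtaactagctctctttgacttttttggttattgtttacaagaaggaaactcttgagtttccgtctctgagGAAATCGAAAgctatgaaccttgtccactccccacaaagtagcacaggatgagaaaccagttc
Ifi209, chr1:173630699-173630848, plus strand: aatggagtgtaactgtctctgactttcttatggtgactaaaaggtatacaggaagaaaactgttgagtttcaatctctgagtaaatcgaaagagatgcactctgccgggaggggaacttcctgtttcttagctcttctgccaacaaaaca
Ifi211, chr1:173913057-173913206, minus strand: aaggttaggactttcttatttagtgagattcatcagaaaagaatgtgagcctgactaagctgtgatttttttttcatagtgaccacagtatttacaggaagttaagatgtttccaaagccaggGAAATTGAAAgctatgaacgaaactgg
Ifi203, chr1:173942503-173942652, minus strand: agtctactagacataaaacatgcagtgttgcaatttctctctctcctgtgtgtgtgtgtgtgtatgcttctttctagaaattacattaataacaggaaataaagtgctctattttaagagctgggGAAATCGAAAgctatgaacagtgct
Ifi202b, chr1:173982855-173983004, minus strand: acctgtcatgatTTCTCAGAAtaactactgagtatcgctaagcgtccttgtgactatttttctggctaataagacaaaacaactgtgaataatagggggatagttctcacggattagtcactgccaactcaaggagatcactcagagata

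Some upstream windows were close copies of each other. The Mndal window at chr1:173880188-173880437 was identical to the printed Ifi203 window in 89.3% of aligned columns. Ifi206 and Ifi213, both low in control 1, were identical in 75.6%, and in 214 of 217 columns of their best local alignment. Ifi211 and Ifi205 had 141 identical bases in a local stretch of 153 columns, although Ifi211 was high in control 1 and Ifi205 was not. A match to the letters is a description of the sequence and not evidence that a factor binds there.

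Mndal and Ifi203 were abundant, and their differences between controls were smaller on the log2 scale. Mndal (ENSMUSG00000090272, chr1:173849126-173942491, minus strand), named for its likeness to the human myeloid nuclear antigen, was at 93.4 and 91.2 CPM in control 1, 159 and 187 in control 2, and 183 and 172 in control 3. Ifi203 (ENSMUSG00000039997, chr1:173920407-173942672, minus strand), a nuclear member of the family, was at 104 and 108 CPM in control 1, 133 and 152 in control 2, and 172 and 152 in control 3. Control 1 was lowest for both, by a log2 difference from the mean of the others of -0.93 for Mndal and -0.52 for Ifi203. Ifi202b (ENSMUSG00000026535, chr1:173962568-173982744, minus strand) was at 13.8 and 10.4 CPM in control 1, 6.12 and 8.13 in control 2, and 7.45 and 8.92 in control 3. No 50-base stretch of Ifi202b occurred in another cluster gene. Ifi205 (ENSMUSG00000054203, chr1:174011998-174031810, minus strand) ranged over 4.86 to 6.88 CPM in the 6 control libraries. Aim2 (ENSMUSG00000037860, chr1:173350879-173466040, plus strand), the DNA sensor, ranged over 101.0 to 128 CPM. Its range of 0.18 in log2 CPM over control animals was at percentile 40.7, below the 0.23 at the middle of all genes, so it did not vary among controls as the choice of the set implies. Among the others the log2 range was 2.82 for Ifi211, 2.42 for Ifi206, 2.33 for Ifi204 and 1.20 for Ifi209.

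Not every gene of the cluster varied as widely among the controls. Of 11 other genes counted within the cluster, 6 were tested, and the other 5 did not pass the filter on low counts. Ifi214, Ifi208 and Ifi207, protein-coding members of the same family that were not on the list, had log2 ranges over controls of 0.25, 0.42 and 0.42. These were at percentiles 54.2, 70.2 and 70.8 of all genes tested, so above the middle. Ifi214, Ifi208 and Ifi207 lie interspersed with the more variable genes. The pseudogenes Ifi203-ps and Gm7871 had ranges of 0.49 (percentile 75.0) and 0.77 (percentile 86.6). The pseudogene Gm7897 had 1.82 and 1.26 CPM in control 1 and was at 0 in all 4 libraries of controls 2 and 3. None of the 69 tested protein-coding genes within 2.5 Mb of the cluster had a range at or above the 99th percentile of all genes (1.86), against 4 of the 10 members, which were chosen for that range.

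**Figure D2:**
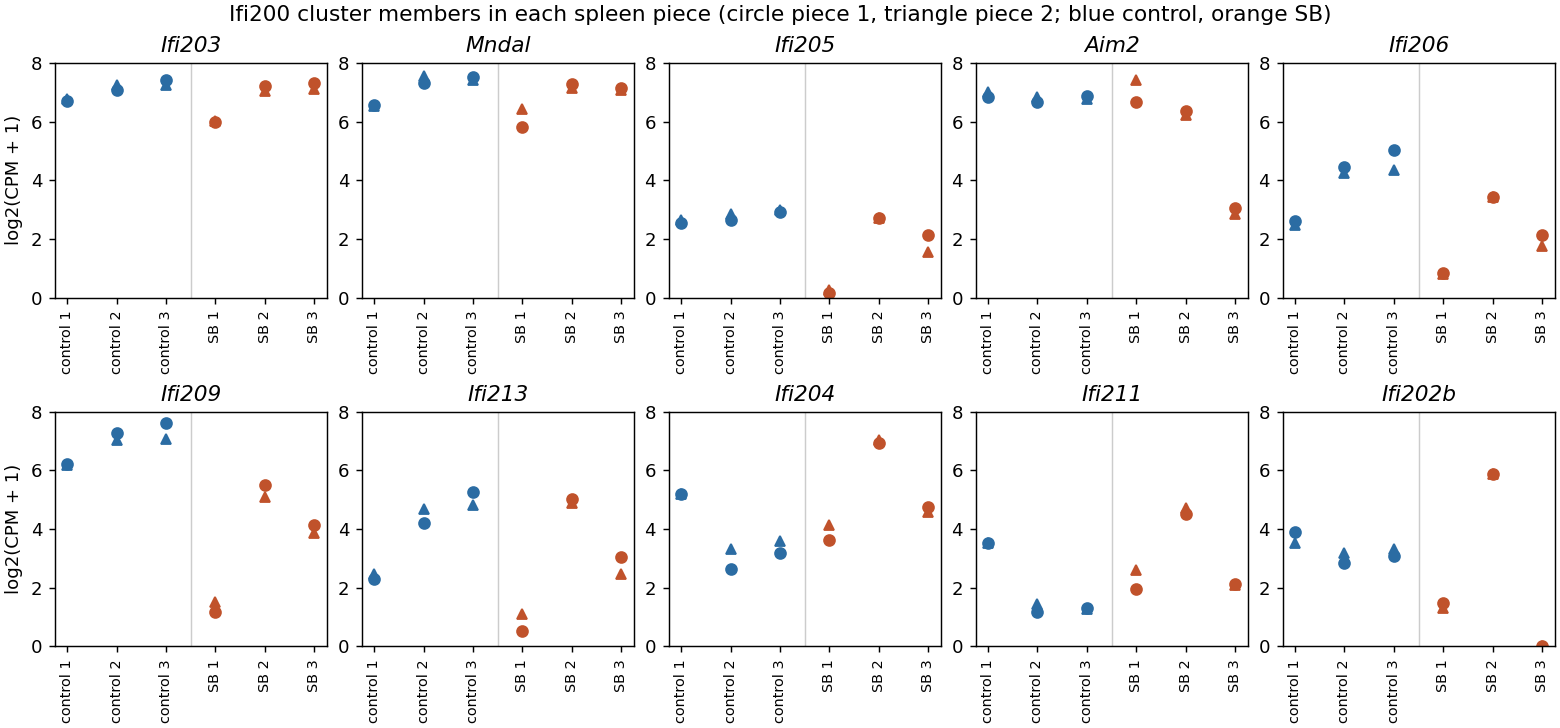
Level of the 10 genes in each library as log2(CPM + 1), with circles for piece 1 and triangles for piece 2, controls in blue and SB animals in orange. The 2 pieces of an animal lie close together in most panels. SB animals lie far apart in most, as for Aim2 at 99.9 and 169 CPM in SB 1 and 7.31 and 6.26 in SB 3. Controls lie close together for some genes, as for Aim2 at 101.0 to 128 CPM in their libraries.

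Among SB animals each spleen had its own pattern. The median log2 range over the 3 SB animals was 3.91 for the members and 1.08 for all genes tested, against 1.07 and 0.23 over the 3 controls. The SB range was the wider in 9 of the 10 genes, and for Ifi211 the ranges were 2.81 in SB and 2.82 in controls. No share over all genes was counted, and the median range of all genes was wider in SB too. Nothing is therefore read from the 9 of 10. SB 2 was the highest SB animal for 8 of the 10 genes and SB 1 the lowest for 7, again with no share over all genes counted. Aim2 broke from this order, at 99.9 and 169 CPM in SB 1, 81.3 and 73.9 in SB 2, and 7.31 and 6.26 in SB 3. SB 3 was far below every other spleen for this sensor, with SB 2 somewhat below the controls. Per kilobase of exon, Aim2 held 50.8% of the summed level of the 10 genes in SB 1, 11.8% in SB 2, 2.51% in SB 3 and 18.5% to 28.2% in controls.

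Ifi202b gave the most extreme values of any member. It was at 1.78 and 1.49 CPM in SB 1 and at 57.7 CPM in both pieces of SB 2, 6.43-fold the mean of the controls. In SB 3 it had 0 counts among 39168970 in the 2 pieces together. A floor of 3 counts over both pieces is 0.0728 CPM in SB 3, so the level there was at least 123-fold lower than the control mean of 8.99 ± 2.56 CPM (SD, n = 3 animals). The same floor puts SB 3 at least 793-fold below SB 2. The inhibitor and the sensor it restrains were both lowest in SB 3, while SB 1 had little Ifi202b. With the pieces summed, Aim2 was highest in SB 1, at 132 CPM against 120 CPM in control 1. That rank rested on piece 2, at 169 CPM, since piece 1, at 99.9 CPM, was below every control library.

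Ifi204 was also highest in SB 2, at 120 and 131 CPM, with 25.9 and 22.6 CPM in SB 3 and 11.3 and 16.5 in SB 1. Ifi211 was highest in SB 2 too, at 21.7 and 25.4 CPM, with 3.35 and 3.25 in SB 3 and 2.83 and 5.02 in SB 1. With the pieces summed, Ifi204 was lowest in SB 1, but Ifi211 was slightly lower in SB 3, at 3.35 against 3.84 CPM in SB 1. These SB levels surround those of control 1 for both genes.

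SB 1 had very low levels of Ifi213, Ifi206 and Ifi209, which were low in control 1 as well. Ifi213 was at 0.419 and 1.12 CPM in SB 1, 31.8 and 28.4 in SB 2, and 7.17 and 4.53 in SB 3. Ifi206 was at 0.785 and 0.744 CPM in SB 1, 9.74 and 9.75 in SB 2, and 3.40 and 2.41 in SB 3. Ifi209 was at 1.26 and 1.86 CPM in SB 1, 43.9 and 33.3 in SB 2, and 16.4 and 13.6 in SB 3. For all 3 genes the order over SB animals was SB 1, SB 3, SB 2, with no overlap of pieces. Ifi205 kept this order, with 0.105 and 0.186 CPM in SB 1, 5.57 and 5.62 in SB 2, and 3.35 and 1.97 in SB 3. Mndal and Ifi203 were lowest in SB 1 as well, at 55.7 and 85.0 CPM and at 63.0 and 64.8 CPM, but in SB 2 and SB 3 both stayed between 131 and 158 CPM.

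No member passed the test between SB and control spleens, where the spread between animals was wide. With the pieces summed per animal, edgeR's quasi-likelihood test called 0 of the 10 genes at an adjusted p under 0.05, against 17.1% of the 17328 genes tested (7.99% higher and 9.1% lower in SB). Of the members, 1 had an unadjusted p under 0.05, against 34.6% of all genes, and DESeq2 called 1, against 33.3% of the 16852 genes to which it gave an adjusted p. Both times the gene was Ifi209. The median log2 change was -0.48 over the members and 0.11 over all genes, with 3 estimates higher and 7 lower in SB. The standard errors were wide, at a median of 1.04 for the members and 0.38 for all genes. For members with errors near or above that 1.04, changes of several fold in either direction could not be resolved. Mndal (SE 0.39) and Ifi203 (SE 0.36) had errors near the median of all genes.

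Ifi209 came nearest to a call. It averaged 18.2 ± 18.3 CPM in SB and 126 ± 48.3 in control animals (SD, n = 3 each). Its log2 change was -2.79, with an SE of 1.05 and an adjusted p of 0.122 by edgeR. All 6 SB libraries lay below all 6 control libraries, from 1.26 to 43.9 against 71.4 to 194 CPM. It was the 1 member whose groups did not overlap, while 29.6% of all genes had such a separation. DESeq2 gave the same log2 change of -2.79 with an adjusted p of 0.0171, and over all alternatives the adjusted p ran from 0.0171 to 0.288. Of the 50-base stretches of Ifi209 transcripts, 33.4% occur in Ifi214, which was also low in SB.

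The other members had changes within about 2 standard errors of 0. The nearest were Ifi206, at -1.89 (SE 1.03, edgeR adjusted p = 0.245), and Ifi204, at 1.68 (SE 1.04, edgeR adjusted p = 0.299). Ifi211 was estimated at 1.22 (SE 1.16), but without SB 2 the estimate was -0.31. Ifi202b was at 1.14 (SE 1.95) with all animals and at -3.46 without SB 2, so its sign rested on that animal. Ifi205 was at -1.04 (SE 1.05), Aim2 at -0.66 (SE 0.89) and Ifi213 at -0.66 (SE 1.29). Mndal (-0.30, SE 0.39) and Ifi203 (-0.22, SE 0.36) had the narrowest errors, and without SB 1 Ifi203 turned to 0.08. The adjusted p for these last 7 genes ran from 0.495 for Ifi211 to 0.752 for Ifi213 (edgeR).

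**Figure D3:**
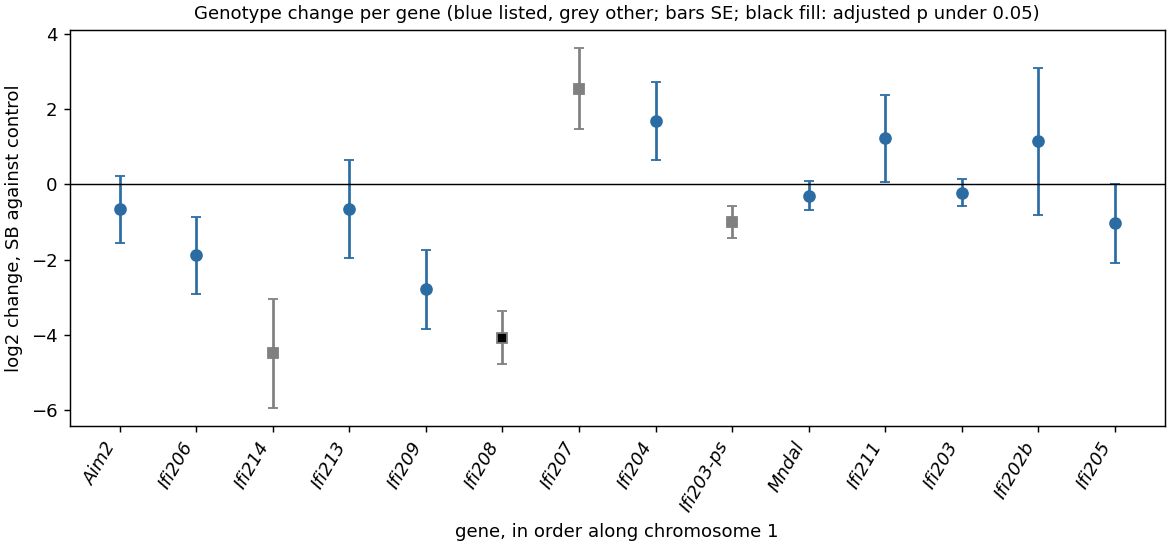
Log2 change of SB against control animals with its standard error for cluster genes with a control mean above 1 CPM (n = 3 animals each). The listed genes (blue) have none with a black fill, the mark for an adjusted p under 0.05, and Ifi208 (grey), at -4.07, is the 1 gene that has it.

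Of the 6 other cluster genes tested, Ifi208 was the 1 called. Its control animals averaged 13.6 ± 1.99 CPM and its SB animals 0.806 ± 0.719 (SD, n = 3 each). Ifi208 thus fell in SB, with a log2 change of -4.07, an SE of 0.71 and an adjusted p of 0.0174 by edgeR, and the libraries did not overlap. The call was lost when any 1 control was left out, with adjusted p of 0.0744 to 0.0814 at nearly the same change, and over all alternatives the adjusted p ran from 8.28e-09 to 0.0814. Ifi214 was at -4.49 (SE 1.44, edgeR adjusted p = 0.0854), and Ifi207 at 2.54 (SE 1.07, edgeR adjusted p = 0.153), with 169 and 158 CPM in SB 2. Without SB 2, Ifi214 was at -7.64 (edgeR adjusted p = 0.00371) and Ifi207 at 0.62. Ifi207 was called by DESeq2 (adjusted p = 0.0357) and by edgeR without SB 1 (log2 change 3.06, adjusted p = 0.0458). Over all alternatives the adjusted p ran from 0.00227 to 0.22 for Ifi214 and from 0.0357 to 0.42 for Ifi207. Ifi203-ps was at -1.0 (SE 0.42, edgeR adjusted p = 0.152) and was called without SB 2, at -1.38 (edgeR adjusted p = 0.0381, with 0.0381 to 0.389 over all alternatives), and the low pseudogenes Gm7871 and Gm7897 were not called.

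No member was called between the 2 pieces of a spleen, the comparison the study set out to make. With the animal as a block, edgeR called 0 of the 10 genes between pieces, where 2.16% of 15523 genes were called. With a share that low, 0 of 10 does not show that the pieces were alike. Unadjusted p was under 0.05 for 2 of the members, against 24.2% of all genes, and DESeq2 called 0, against 9.11% of 12814. The median log2 difference between piece 2 and piece 1 was -0.01, with a median SE of 0.12. That median is over 5 members estimated higher and 5 lower in piece 2. Ifi209 was the nearest to a call, at -0.26 (SE 0.09, edgeR adjusted p = 0.11), followed by Ifi206 at -0.30 (SE 0.13, edgeR adjusted p = 0.18). Ifi204 was at 0.24 (SE 0.11, edgeR adjusted p = 0.232). In the titles the sections are 1 and 2 in SB spleens and A and B in controls, taken here as pieces 1 and 2. No title says that a number or letter marks the same place in each spleen. Both piece tests use the sign of the difference, so they cannot show differences whose direction varies between spleens. The signed difference between pieces did not differ detectably between genotypes. In that test edgeR called 0 members, against 1.23% of 16787 genes, and 0 had an unadjusted p under 0.05, against 17.1%. DESeq2 called 0 members, against 3.78% of 13532 genes. The most uneven pieces were those of SB 1, where Ifi213 differed by 1.21, Ifi211 by 0.81 and Aim2 by 0.76 in log2 CPM, all higher in piece 2. Pieces of other animals differed too, as for Ifi204 by 0.76 in control 2, Ifi205 by -0.73 in SB 3 and Ifi206 by -0.70 in control 3.

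Among the partners of the DNA sensors, 1 gene passed the genotype test. Of 17 listed genes of DNA sensing and the inflammasome, 16 were counted and tested, 1 rose in SB and 0 fell, no larger a share than the 7.99% higher and 9.1% lower of all genes. The gene that rose was Cgas, the cytosolic DNA sensor that makes cyclic GMP-AMP, from 5.83 ± 0.600 to 28.0 ± 7.87 CPM (SD, n = 3 animals each; log2 change 2.26, SE 0.29, edgeR adjusted p = 0.00876). The adjusted p was 0.0563 to 0.0667 when any 1 control was left out, and 2.11e-12 to 0.0667 over all alternatives. The median log2 change of the list was -0.22. Of 10 listed interferon receptor and signalling genes, 0 were called, with a median of -0.28.

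Genes induced by type I interferon also varied between animals. The members had wider median ranges, but spread among controls chose them, so nothing is read from that. The median log2 range of the interferon-induced genes was 0.67 over controls and 2.65 over SB animals. Of 22 such genes, 2 rose in SB and 0 fell, near the 7.99% and under the 9.1% of all genes, and the median log2 change was 0.92. Ifih1, a sensor of double-stranded RNA, was at 137 ± 96.4 CPM in SB and 18.1 ± 0.739 in controls (SD, n = 3 animals each; log2 change 2.92, SE 0.51, edgeR adjusted p = 0.0175). Oas1a, an oligoadenylate synthetase, was at 32.2 ± 17.0 and 7.03 ± 1.57 CPM (log2 change 2.19, SE 0.43, edgeR adjusted p = 0.0245). Both calls were lost when any 1 control was left out, at adjusted p of 0.0913 to 0.0945 for Ifih1 and 0.104 to 0.114 for Oas1a. Over all alternatives the adjusted p ran from 9.46e-07 to 0.0945 for Ifih1 and from 3.5e-05 to 0.114 for Oas1a. The 22 genes summed to 2904 CPM in SB 2, 786 in SB 1 and 1134 in SB 3. SB 2 and SB 1 were also the highest and lowest SB animals for most of the cluster. The same held for summed neutrophil, monocyte, red pulp macrophage, NK cell, plasma cell and erythroid markers and interferon receptor and signalling genes. It did not hold for B cell, T cell, dendritic cell, promyelocyte, megakaryocyte and endothelial markers or the DNA sensing list. Nothing is therefore read from the shared order. Among controls the sums were 1037, 1080 and 1331 CPM, and both libraries of control 1 were below the other 4 for 8 of the 22 genes and above them for 0. Control 1 also had the most promyelocyte marker RNA, 62.3 CPM over 5 genes against 26.2 and 12.1, and its libraries were highest for all 5. Neutrophil markers summed to 269 CPM in control 1, 183 in control 2 and 121 in control 3. Plasma cell, erythroid and megakaryocyte markers kept the same order, at 2676, 2329 and 1787 CPM, at 38100, 30680 and 17900 CPM, and at 643, 565 and 259 CPM. Both control 1 libraries were above the other 4 for 4 of 8 neutrophil, 4 of 6 plasma cell, 2 of 8 erythroid and 0 of 7 megakaryocyte markers. The part of these cells in the levels of control 1 was not tested.

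The profile of Ifi213 was compared with 11793 genes outside the list. The 5 most alike over the 12 libraries were Slfn8 (Pearson r = 0.983), Ifit3 (0.941), Gm12250 (0.933), Parp14 (0.926) and Irf9 (0.926). They lie on chromosomes 11, 19, 11, 16 and 14, away from the cluster. Slfn8, a Schlafen family gene, was at 27.7, 55.6 and 67.8 CPM in controls 1 to 3 and at 10.1, 52.0 and 29.0 CPM in SB 1 to SB 3. Irf9, a subunit of the factor that binds the ISRE, was at 122, 139 and 176 CPM in controls 1 to 3 and at 94.4, 188 and 148 CPM in SB 1 to SB 3. The control order of Ifi213, with control 1 lowest and control 3 highest, held for all 5, over a narrower range. Ifi213 was taken because its control range was the widest of the members, and the 5 genes for their likeness. Nothing is therefore read from the shared order or the narrower range. These correlations are descriptions over libraries that share animals.

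**Figure D4:**
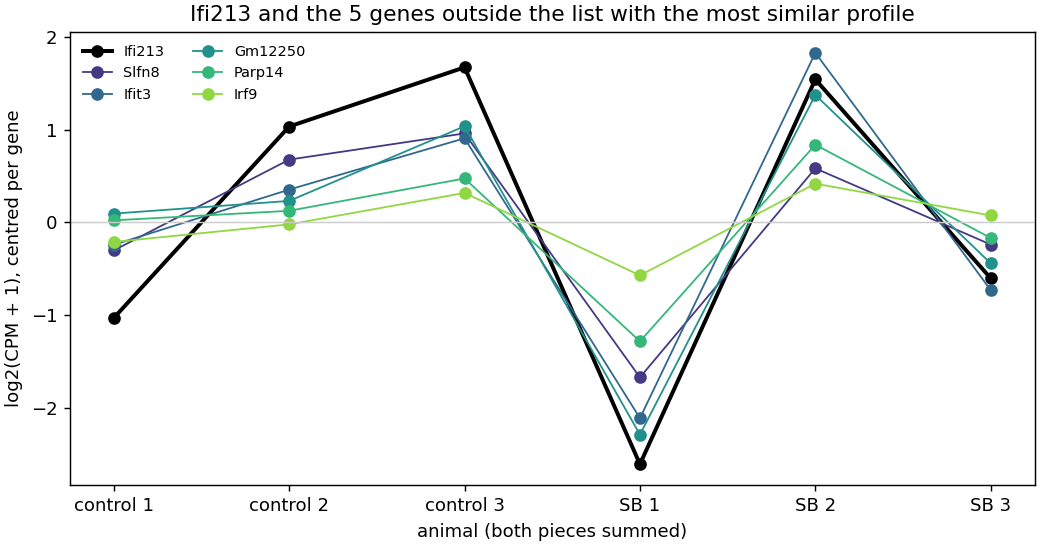
Log2(CPM + 1) of Ifi213 (black) and of the 5 most similar genes outside the list, centred on each gene's mean over the 6 animals. All 6 lines are lowest in SB 1, control 1 is the lowest control and control 3 the highest in each, and the line of Ifi213 spans the widest range among controls, from 4.18 to 32.7 CPM. Ifi213 was chosen for that range and the other genes for their likeness to it.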

How the data were processed

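Poly-A RNA of 12 mouse spleen pieces was sequenced without strand, per the labels' protocols. The authors deposited whole-number read counts per Ensembl gene with no normalisation, as judged from the values. STAR 2.5.3a, limma and the builds mm10 and GRCm38 are named in the submitters' processing notes, and the counting mode is not given in the sources used here. Without strand, overlapping antisense genes cannot be told apart. Symbols came from GENCODE release M21, which matched 32026 of 32121 genes.

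The members and all gene lists were chosen with earlier results of these data known. All 10 members are described whatever their p. Others are named where they lie in the cluster and pass the filter, or are called on a list. Also named are the 3 strain-linked genes and the 5 genes most like Ifi213 (mean of at least 5 CPM). The animal was the replicate. edgeR 4.0.16 in R 4.3.3 (TMM, filterByExpr, robust quasi-likelihood F test, two-sided, Benjamini-Hochberg adjusted p under 0.05) compared 3 SB with 3 control animals on counts summed over pieces, and pieces with the animal as a block. Pieces are paired by the animal in their titles. SB sections 1 and 2 and control sections A and B were taken as pieces 1 and 2. No label links SB to control animals or says whether they are littermates, so p-values measure the spread between these animals. DESeq2 1.42.0, other scalings, no filter, left-out animals and single pieces were the alternatives. Ranges over animals use log2 CPM with a prior count of 2, with a detection floor of 3 counts. The genotype and piece fits were tested on simulated counts. For genotype these had less spread between animals than the data, so they do not show how the fit behaves for the members.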

Additional observations from a re-analysis of the deposited data

How the results depend on the processing

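Over 13 alternatives of the genotype comparison, 126 of the 130 values of the 10 members kept their direction and their side of the threshold. DESeq2 called 1 member lower in SB (Ifi209), against 0 with edgeR. The estimates that turned sign did so when 1 animal was left out: leave-one-out values ran from -3.46 to 1.73 for Ifi202b, from -0.43 to 0.08 for Ifi203 and from -0.31 to 2.83 for Ifi211. No member changed direction with the scaling. Between pieces, 112 of 120 values kept direction and side. The number of members lower in piece 2 was 0, and it was 1 (Ifi209) with no filter on low counts and 0 to 1 over the leave-one-out fits, the 1 without SB 1. Leave-one-out values of the piece difference turned sign for Ifi202b (-0.08 to 0.13), Ifi205 (-0.09 to 0.14), Ifi213 (-0.20 to 0.08) and Mndal (-0.02 to 0.13). With no replicate block, 0 members were called between pieces and 0 for the difference between genotypes.

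Over all genes, 2961 were called by genotype, 5614 with DESeq2, 6174 without SB 2, and 253 to 399 without 1 control. Pieces gave 335 calls, with 533 under RLE, 1861 with no filter, 1167 with DESeq2, 511 without SB 1, and 0 without SB 3, without any 1 control or with no replicate block. The difference between genotypes gave 206 calls, with 1218 with no filter, 511 with DESeq2, 512 without SB 1, 362 without SB 2, 540 without control 1, and 0 without SB 3, control 2 or control 3 or with no replicate block. The cause was not tested. Depth limits Ifi202b most, with 0 counts in SB 3, then Ifi205, Ifi213, Ifi206 and Ifi211, with as few as 2, 8, 12 and 19 counts in a library.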
